A study of Mus musculus with 10 samples.

Results

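Immediate early genes are transcribed within minutes of a neuron being driven, before any new protein is made, and their mRNAs are short-lived. Calcium and MAP kinase signals reach them through transcription factors that are already in place, chiefly CREB and SRF, and many of their products are transcription factors that act on a later wave of activity-dependent genes. In brain tissue they are widely read as a record of recent neuronal activity, and they also respond to handling, to anesthesia and to the interval before tissue is taken. Of the 54532 genes in the count table, 10 were taken as neuronal immediate early genes by their symbols: Fos, Fosb, Junb, Egr1, Egr2, Egr4, Arc, Npas4, Nr4a1 and Dusp1. All 10 were measured in every mouse and all passed the filter on low counts that left 17665 genes.

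Brain RNA came from 10 mice homozygous for the Slc20a2 knockout (Slc20a2-HO, tm1a(EUCOMM)Wtsi allele), which lack a phosphate transporter and develop brain calcification. Of these, 6 received FTY720, a sphingosine-1-phosphate receptor modulator, at 0.5 mg/kg in dimethyl sulfoxide by intraperitoneal injection from 1.5 months of age for 12 weeks, and 4 received dimethyl sulfoxide alone (placebo). Every mouse carried the knockout, and no wild-type library was analysed here. Per the study's methods each brain was divided equally, with 1 part extracted for RNA and the other fixed. The regions that the RNA part held are not stated there. Mice are named as in F1-622 or P3-612, where F is FTY720, P is placebo and the digit after the letter, which the labels do not explain, is 1 or 3. The digit was 1 in 3 FTY720 mice and 1 placebo mouse, and 3 in 3 FTY720 mice and 3 placebo mice.

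Libraries held 14772745 to 18303981 counts on genes, and mitochondrial genes took 4.83% to 6.47% of them. They separated by the digit, so the comparisons of the 10 genes are also given within it. Summed over the 9 cerebellar granule cell and hindbrain markers, levels were 138 to 158 CPM (counts scaled to library size with trimmed mean of M-values factors) in mice with the digit 1, against 994 to 1110 CPM in those with the digit 3. The hindbrain genes Hoxb5 and Hoxb3 had no count in any of the 4 mice with the digit 1. Gabra6 was at 0.059 to 0.24 CPM there, against 130 to 172 CPM with the digit 3. Cbln3 was at 0.413 to 1.14 CPM, against 251 to 334 CPM. The largest part of the digit 1 sum was Zic1, at 62.0 to 78.0 CPM. The 8 forebrain excitatory neuron markers summed to 2030 to 2350 CPM in the former and to 983 to 1640 CPM in the latter (two-sided exact permutation test, p = 0.00476, the smallest it can give). The 5 markers of neurons of all regions overlapped, at 3930 to 4680 CPM and 3940 to 4170 CPM in sum, although Tubb3 among them was called lower with the digit 3 (-0.39 on the log2 scale, adjusted p = 0.0187 from edgeR). The digit and the brain regions that the markers trace cannot be told apart here. In whole tissue, fewer cells of a type and less RNA per cell cannot be told apart either.

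All 10 genes were lower in the mice with the digit 3, by 2.05-fold (Egr1) to 3.51-fold (Junb), and within each digit they rose and fell largely together from mouse to mouse. FTY720 and placebo mice overlapped in all 10, and no gene differed between them past the threshold. The placebo mouse P1-623 held the highest value of the 10 mice in 9 of the genes, and without it the digit calls of Fos, Egr2, Npas4 and Nr4a1 were lost. The values follow by the role of the protein.

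**Figure D1:**
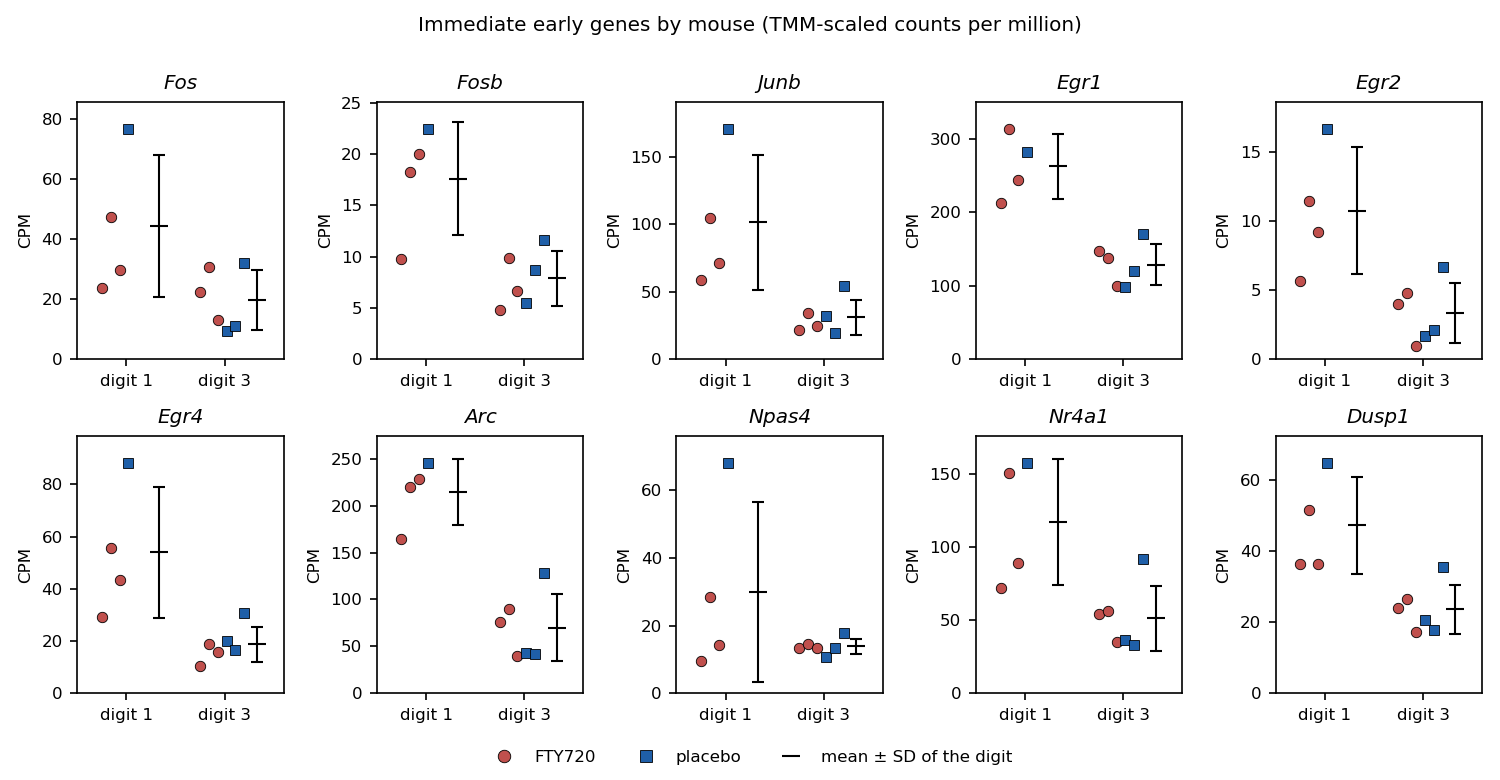
CPM of the 10 immediate early genes in each of the 10 mice, by the digit in the mouse's name; circles are FTY720 mice, squares placebo mice, and the bar to the right of each set is the mean ± SD of that digit (n = 4 and n = 6). Each vertical axis starts at 0 and has its own range. In Junb, Egr1, Arc and Dusp1 the lowest mouse with the digit 1 lies above the highest with the digit 3, and in Npas4 the spread with the digit 1 comes mostly from P1-623, at 67.8 CPM.

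The AP-1 subunits were Fos, Fosb and Junb, whose products bind AP-1 sites as pairs of a Fos family and a Jun family protein. Fos (ENSMUSG00000021250, chromosome 12 from 85473890 to 85477273, plus strand, GRCm38) stood at 23.8, 47.2 and 29.6 CPM in the FTY720 mice F1-622, F1-624 and F1-918 and at 76.5 CPM in P1-623. With the digit 3 it was 22.4, 30.5 and 13.0 CPM in the FTY720 mice F3-609, F3-612 and F3-908 and 9.27, 11.1 and 32.1 CPM in the placebo mice P3-612, P3-904 and P3-907. The digits overlapped, because F3-612 and P3-907 lay above F1-622 and F1-918. Fos was nevertheless called lower with the digit 3, with a fitted log2 fold change of -1.17 and a standard error of 0.38 (adjusted p = 0.0357; quasi-likelihood test of edgeR, Benjamini-Hochberg adjustment over all genes tested). Without P1-623 the log2 fold change was -0.61 and the adjusted p from edgeR 0.356. Without F1-624, F3-609 or F3-908 the log2 fold change stayed between -1.24 and -1.08, at adjusted p-values of 0.0631 to 0.0738 from edgeR.

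Junb (ENSMUSG00000052837, chromosome 8 from 84974484 to 84978718, minus strand) showed the largest difference of the 10. It was 58.6, 104.8 and 71.5 CPM in F1-622, F1-624 and F1-918 and 170.3 CPM in P1-623, against a lowest, median and highest value of 19.1, 28.5 and 54.4 CPM with the digit 3. The digits did not overlap, and the log2 fold change was -1.81 (standard error 0.26, adjusted p = 0.000509 from edgeR). The neighbouring gene Prdx2 overlaps Junb on the opposite strand with up to 4226 counts in a mouse, and the strand setting of the counting is not given in the sources used here, so the Junb level is uncertain. Fosb (ENSMUSG00000003545, chromosome 7 from 19302696 to 19310051, minus strand), a close relative of Fos, was 9.78, 18.2, 20.0 and 22.4 CPM in F1-622, F1-624, F1-918 and P1-623. With the digit 3 its lowest, median and highest values were 4.83, 7.68 and 11.7 CPM. F1-622 fell inside that range, and the difference was -1.24 on the log2 scale (standard error 0.25, adjusted p = 0.0041 from edgeR).

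Egr1, Egr2 and Egr4 encode zinc-finger transcription factors of the EGR family. Egr1 (ENSMUSG00000038418, chromosome 18 from 34859823 to 34864984, plus strand) was the most evenly expressed of the 10, at 212.0, 313.1, 243.7 and 281.9 CPM in F1-622, F1-624, F1-918 and P1-623 and between 98.1 and 169.9 CPM, with a median of 129.1 CPM, in the mice with the digit 3. It was the only one of the 10 in which F1-624, not P1-623, was highest. The digits did not overlap, and the log2 fold change was -1.04 (standard error 0.16, adjusted p = 0.000949 from edgeR).

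Egr2 (ENSMUSG00000037868, chromosome 10 from 67535475 to 67542188, plus strand) had the lowest counts, 16 to 254 per mouse. It stood at 5.67, 11.4, 9.23 and 16.6 CPM in F1-622, F1-624, F1-918 and P1-623. F3-609, F3-612 and F3-908 had 4.0, 4.77 and 0.956 CPM, and P3-612, P3-904 and P3-907 had 1.66, 2.08 and 6.66 CPM, so that only P3-907 reached into the range of the digit 1. The highest mouse was 17.4-fold above the lowest, the widest range of the 10, and the log2 fold change was -1.74 (standard error 0.42, adjusted p = 0.0096 from edgeR). Without P1-623 it was -1.44 and no longer called (adjusted p = 0.0997 from edgeR). Egr4 (ENSMUSG00000071341, chromosome 6 from 85511121 to 85513589, minus strand) was 29.1, 55.7, 43.6 and 88.1 CPM in F1-622, F1-624, F1-918 and P1-623, and 10.4 to 30.6 CPM with a median of 17.8 CPM with the digit 3. Only P3-907 overlapped the digit 1, and the log2 fold change was -1.67 (standard error 0.22, adjusted p = 0.000288 from edgeR).

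Arc (ENSMUSG00000022602, chromosome 15 from 74669083 to 74672570, minus strand) encodes a cytoskeleton-associated protein of the postsynapse that drives AMPA receptor endocytosis, and it is not a transcription factor. It was 164.6, 220.1, 228.6 and 244.9 CPM in F1-622, F1-624, F1-918 and P1-623. In the mice with the digit 3 it split widely, with 75.7, 90.3 and 39.5 CPM in F3-609, F3-612 and F3-908 and 43.4, 41.5 and 128.7 CPM in P3-612, P3-904 and P3-907. Even the highest of these lay below every mouse with the digit 1, and the log2 fold change was -1.65 (standard error 0.31, adjusted p = 0.0026 from edgeR).

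Npas4 (ENSMUSG00000045903, chromosome 19 from 4984355 to 4989971, minus strand), a neuron-specific transcription factor that answers chiefly to calcium entry, behaved differently from the rest. It was 9.43, 28.4 and 14.2 CPM in F1-622, F1-624 and F1-918 and 67.8 CPM in P1-623, while the 6 mice with the digit 3 stayed between 10.8 and 17.8 CPM, with a median of 13.4 CPM. F1-622 was thus the lowest of all 10 mice and P1-623 the highest, both with the digit 1. The log2 fold change was -1.09 (standard error 0.35, adjusted p = 0.0327 from edgeR), but the exact permutation test of mean log2 CPM gave p = 0.167, and without P1-623 the log2 fold change was -0.35 (adjusted p = 0.481 from edgeR). Without F1-624, F3-609 or P3-907 it stayed between -1.16 and -0.95, at adjusted p-values of 0.0568 to 0.0848 from edgeR.

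Nr4a1 (ENSMUSG00000023034, chromosome 15 from 101254269 to 101274795, plus strand) encodes an orphan nuclear receptor, and Dusp1 (ENSMUSG00000024190, chromosome 17 from 26505590 to 26508519, minus strand) a phosphatase that switches MAP kinases off again. Nr4a1 was 72.0, 150.3, 89.0 and 157.1 CPM in F1-622, F1-624, F1-918 and P1-623, and 33.2 to 92.0 CPM with a median of 45.4 CPM with the digit 3. P3-907, at the top of that range, lay above F1-622 and F1-918, and the log2 fold change was -1.25 (standard error 0.29, adjusted p = 0.0077 from edgeR). That call too was lost without P1-623 (-1.10, adjusted p = 0.0713 from edgeR). Dusp1 was 36.3, 51.5, 36.3 and 64.5 CPM in F1-622, F1-624, F1-918 and P1-623. With the digit 3 it was 17.3 to 35.4 CPM, just below the lowest mouse with the digit 1, and the log2 fold change was -1.06 (standard error 0.20, adjusted p = 0.0030 from edgeR).

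Counted over the 10 genes, all 10 were lower with the digit 3 at an adjusted p under 0.05, where 14.4% of all genes tested were called lower and 13.9% higher. The digits did not overlap in 4 of the 10 (Junb, Egr1, Arc and Dusp1), against 6.41% of all genes tested that were lower without overlap. The median log2 fold change of the 10 was -1.25, and that of all genes tested was -0.01. By the exact permutation test of single genes, 8 of the 10 were lower at p under 0.05, as were 15.9% of all genes tested, Fos (p = 0.0571) and Npas4 (p = 0.167) being the others. In the 6 FTY720 mice alone, 3 of each digit, 8 of the 10 were called lower, against 9.19% of the genes tested there, and the log2 fold changes of Fos and Npas4, which were not called, were -0.61 and -0.34. Without P1-623, the only placebo mouse with the digit 1, 6 of the 10 were called, against 7.33% of the genes tested there, and Fos, Egr2, Npas4 and Nr4a1 were lost. In the 6 mice whose number begins with 6, an alternative added after the data were seen, 6 were called as well (3.05% of the genes tested there), and the lost genes were Fos, Fosb, Egr2 and Npas4.

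The summed forebrain excitatory neuron markers differed between the digits by -0.71 on the log2 scale. Ratios of the 10 genes to that sum, also an added alternative, take this difference out of every gene alike, and on that scale the digits differed by -1.10 (Egr2) to -0.0082 (Npas4). Of the 8 forebrain markers themselves, 6 were called lower with the digit 3 and none higher (14.4% and 13.9% of all genes tested), with a median log2 fold change of -0.59. The 6 microglia markers moved with the digit too, at 325 to 391 CPM in sum for the digit 1 against 227 to 309 CPM for the digit 3. The sums of the 5 choroid plexus markers overlapped, at 590 to 776 CPM and 431 to 634 CPM. They differed by -0.31 on the log2 scale (exact permutation test, p = 0.0429), and only Ttr among the 5 was called lower. Among endothelial markers Kdr and Slco1a4 were called higher with the digit 3, and among astrocyte markers Aldh1l1 was called lower and Aqp4 higher. The part of these cell types in the result was not tested. Egr4 and Junb are also rich in G and C, at the 99.8th and 98.7th percentiles of GC content of the genes tested. When trends on GC content and gene length were removed from each library, the log2 fold change was -1.11 for Egr4 and -1.42 for Junb, both still called by edgeR, while Fos (-1.06, adjusted p = 0.0593) and Npas4 (-0.92, adjusted p = 0.0682) missed the threshold.

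**Figure D2:**
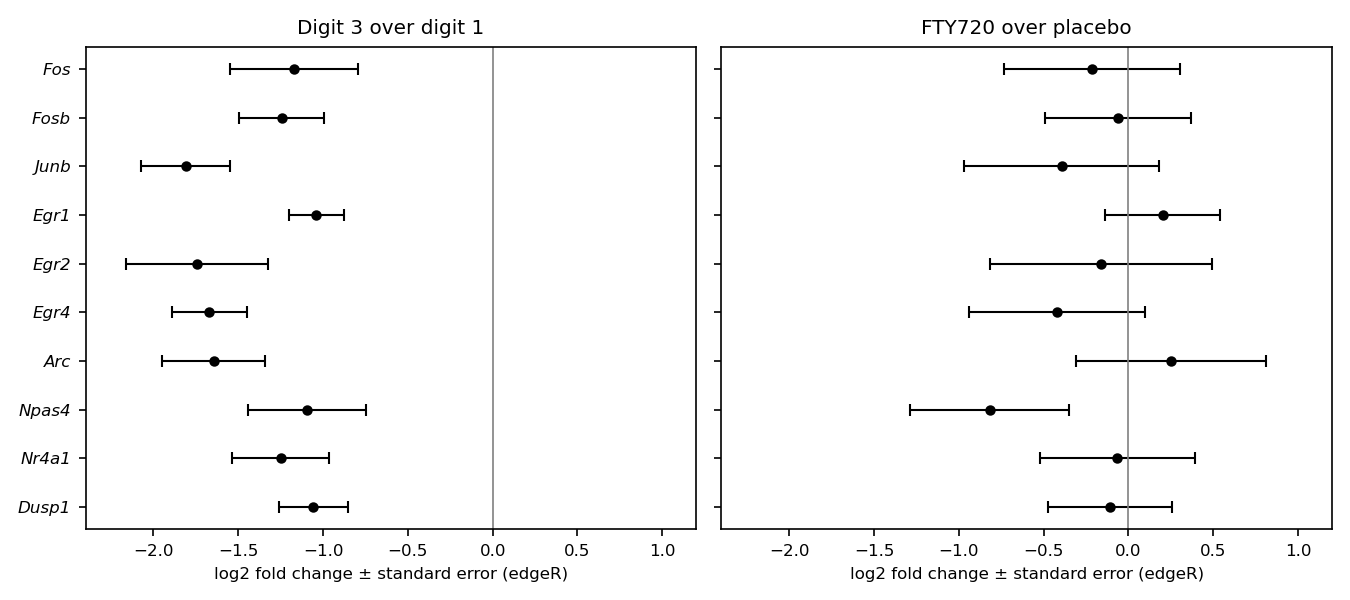
Log2 fold change ± standard error (edgeR) of the 10 immediate early genes for the digit 3 over the digit 1 with treatment in the model (left) and for FTY720 over placebo (right), on the same horizontal axis. The digit values run from -1.81 to -1.04, all below 0, and the treatment values from -0.82 to 0.25, on both sides of it.

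The comparison of FTY720 with placebo is the question the study put to these libraries. The treatment groups overlapped in all 10 genes, and by edgeR's quasi-likelihood test 0 of the 10 passed 0.05, whether unadjusted (2.61% of all genes tested passed) or adjusted (0.0% of them passed). Mean CPM was lower with FTY720 in 8 of the 10 genes and higher in Egr1 and Arc, a split that moved with the mice taken. Without P1-623 all 10 log2 fold changes were above 0, from 0.16 (Npas4) to 0.948 (Arc), but every placebo mouse then had the digit 3 while the FTY720 mice had both, so that treatment and the digit are mixed in these values. With the digit as a covariate and all mice kept, all 10 were below 0. Fos averaged 27.7 ± 11.4 CPM (SD, n = 6) in FTY720 mice, against 32.3 ± 31.3 CPM (SD, n = 4) in placebo mice. The log2 fold change of Fos was -0.22, with a 95% interval from -1.34 to 0.91, and that of Arc was 0.25, from -0.97 to 1.47. Egr1 had the narrowest interval, around 0.20 from -0.53 to 0.94. In Fos and Npas4 the interval reached as far down as the gene's digit difference, and in the other 8 genes it ended above it.

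Npas4 had the largest treatment difference, 15.5 ± 6.55 CPM (SD, n = 6) in FTY720 mice against 27.4 ± 27.1 CPM (SD, n = 4) in placebo mice. Its log2 fold change was -0.82 (standard error 0.47, 95% interval from -1.84 to 0.20, edgeR's unadjusted p = 0.106 and adjusted p = 0.9999). In the placebo group 1 mouse set that mean, since P1-623 stood at 67.8 CPM and the others between 10.8 and 17.8 CPM, and in the digit 3 mice only the log2 fold change was -0.02.

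The digit is unevenly shared between the treatment groups. With the digit as a covariate, 3 of the 10 genes (Egr4, Junb and Npas4) fell below an unadjusted p of 0.05 by edgeR, where 12.8% of all genes tested did. Their log2 fold changes were -0.74, -0.67 and -0.79, and their adjusted p-values from edgeR 0.354, 0.364 and 0.382. In that fit the values of Egr1 and Arc changed sign, to -0.05 and -0.13. Among the mice with the digit 3 only (3 FTY720, 3 placebo), none of the 10 genes had an unadjusted p under 0.05 from edgeR. Of the 17656 genes tested there, 1283 did. The log2 fold changes there ran from -0.56 in Egr4 to 0.33 in Fos.

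Whether the treatment difference itself differed between the digits was tested as an interaction. It passed an unadjusted p of 0.05 in 1 of the 10 genes, Npas4, and in 1.95% of all genes tested. The FTY720 difference in Npas4 was -1.96 on the log2 scale in mice with the digit 1 and -0.03 in those with the digit 3, and the interaction was 1.93 (standard error 0.53, edgeR's unadjusted p = 0.00342, adjusted p = 0.9999). For Fos it was -1.19 with the digit 1 and 0.32 with the digit 3 (interaction 1.51, unadjusted p = 0.0624 from edgeR). The placebo side with the digit 1 was P1-623 alone, which the fit assumes to vary like the other mice, and without it the interaction could not be fitted.

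The 10 genes varied more from mouse to mouse than most genes. The SD of log2 CPM over the 10 mice had a median of 0.88 over the 10 genes and 0.30 over all genes tested, and after the mean of each digit was taken out the medians were 0.58 and 0.25. Egr2 (1.25) and Arc (1.06) spread widest over the 10 mice, at the 99.2th and 98.4th percentiles of all genes tested, and Egr1 (0.60) least, at the 88.2th. Within the digit 3 the order changed, since Npas4 (0.23) then lay at the 49.3th percentile and Egr2 (1.0) stayed at the 99.2th.

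**Figure D3:**
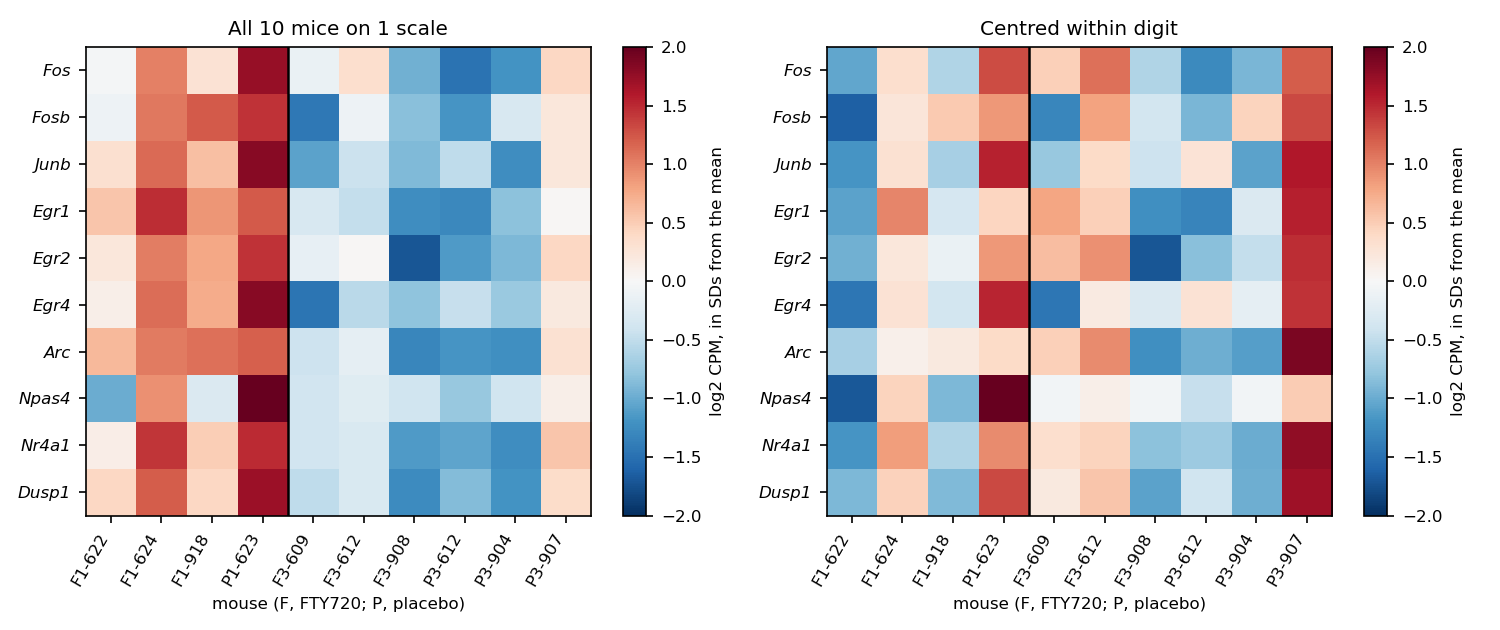
Log2 CPM of each gene (rows) in each mouse (columns; F, FTY720; P, placebo), in SDs from the gene's mean, over all 10 mice (left) and after the mean of each digit was taken out (right); the black line parts the digits, and the colors stop at 2 SDs. On the right P1-623, F1-624, F3-612 and P3-907 are above the mean of their digit in all 10 genes, and F1-622 and F3-908 below it in all 10.

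Seen mouse by mouse, the deviations were shared across the 10 genes. P3-907 lay above the mean of its digit in all 10 genes, by a mean of 0.78 on the log2 scale, P1-623 by 0.67, F3-612 by 0.34 and F1-624 by 0.21. F1-622 lay below it in all 10 by a mean of 0.66, and F3-908 by 0.43. The placebo mice P3-904 and P3-612 were below the mean in most genes, with 1 and 2 of the 10 above it. High and low mice were thus found in both treatment groups.

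Joint movement was measured by Pearson's r of log2 CPM for the 45 pairs of genes, within the 6 mice with the digit 3 because all 10 mice together form clusters. All 45 values were above 0, from 0.221 to 0.982 with a median of 0.77, and 20 of the 45 pairs were over 0.8, where 7.72% of all pairs of genes tested were. Over the 720 orders of the mice, the exact permutation test gave a raw p under 0.05 in 20 pairs and an adjusted p under 0.05 in 4. Spearman's rho had a median of 0.714, with a raw exact p under 0.05 in 10 pairs and an adjusted p under 0.05 in none. Without the 2 mice farthest from the median of the gene on the x axis, the median r was 0.743 and the lowest -0.45. Without P3-907 the median r fell to 0.489, and 35 of the 45 values were above 0, so that much of the relation within the digit 3 rested on that mouse.

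With all 10 mice centred on the mean of their digit, r ranged from 0.383 to 0.964 with a median of 0.736. Over the 17280 orders of the mice within digits, the exact permutation test gave an adjusted p under 0.05 in 27 of the 45 pairs, and Spearman's rho (median 0.758) in 24. Of the 45 pairs 19 were over 0.8, where 3.37% of all pairs of genes tested were. Without the 2 farthest mice the median r was 0.684, and 44 of 45 values stayed above 0. With the mean of each treatment group within each digit also taken out the median was 0.731. Pairs of this family share libraries and are not independent of one another.

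The closest pair was Nr4a1 and Dusp1, at r = 0.982 in the mice with the digit 3 (rho = 0.943, exact permutation test, p = 0.00278, adjusted p = 0.0469) and at 0.964 in all 10 mice centred within digit (adjusted p = 0.0039 by the exact permutation test). Arc and Nr4a1 were at 0.980 and Arc and Dusp1 at 0.974 in the mice with the digit 3. Fos, Egr1, Egr2, Arc, Nr4a1 and Dusp1, a set picked out after the values were seen, were all paired at 0.857 or more there. Egr4 stood outside it, at 0.221 with Egr1 and 0.241 with Fos, and was closest to Junb, at 0.853, and to Fosb, at 0.765. Egr4 and Junb are also the richest of the 10 genes in G and C. No r was computed with GC trends removed, so a part of GC content in this pair was not tested. Against the mean of the other 9 genes, Nr4a1 had the highest r of the 10 in the mice with the digit 3 (0.952) and Egr4 the lowest (0.537).

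**Figure D4:**
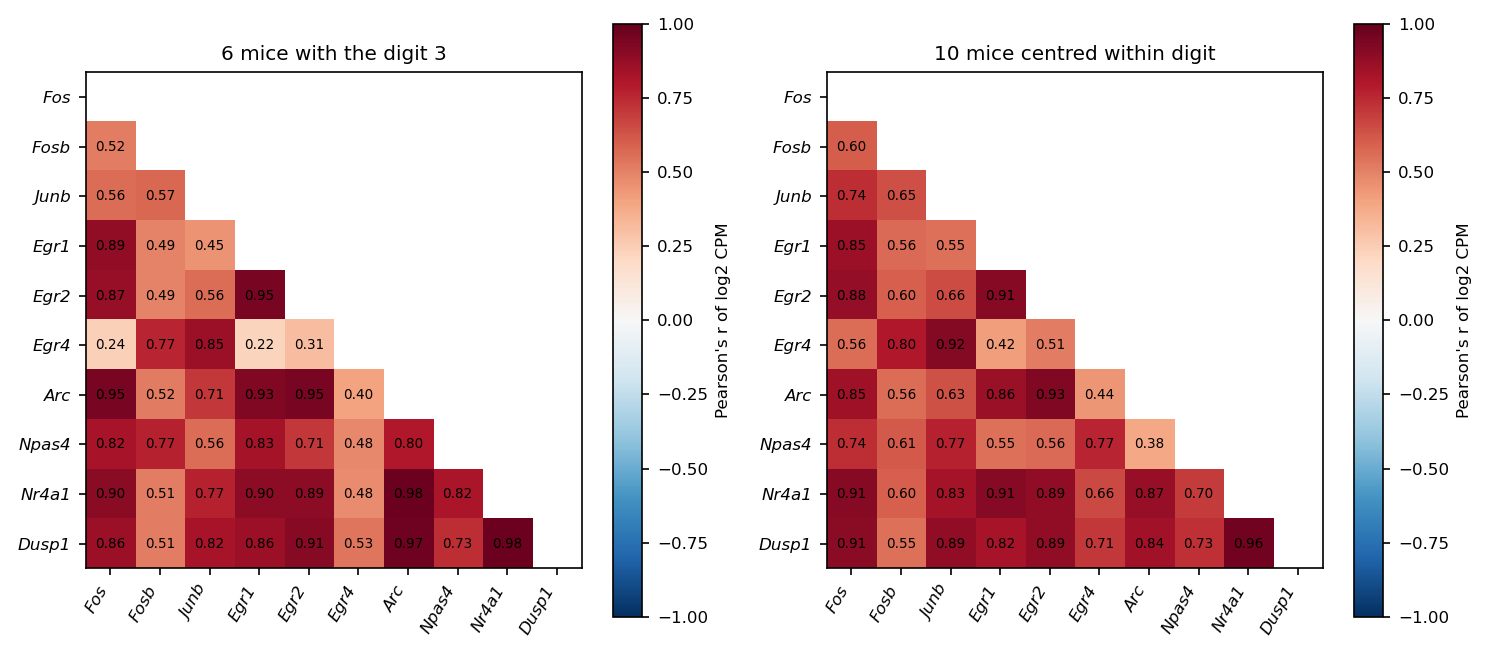
Pearson's r of log2 CPM for the 45 pairs of immediate early genes, in the 6 mice with the digit 3 (left) and in all 10 mice after the mean of each digit was taken out (right); each square is 1 pair and prints its r. All squares are above 0, and the palest on the left are those of Egr4 with Egr1 (0.22) and Fos (0.24).

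Per length, as the authors' FPKM values, Arc (median 35.4 over the 10 mice) and Egr1 (35.0) were the most abundant, followed by Junb (19.0), Nr4a1 (18.2), Dusp1 (11.3), Egr4 (11.3), Fos (11.2), Npas4 (4.18), Fosb (1.56) and Egr2 (1.53). Several neighbours in that order did not separate: Arc was above Egr1 in 5 of 10 mice, Junb above Nr4a1 in 6, Dusp1 above Egr4 in 2 and Fosb above Egr2 in 5. Others did, with Nr4a1 above Dusp1, Fos above Npas4 and Npas4 above Fosb in all 10 mice. The order was the same when CPM was divided by gene length, but FPKM is made from the same counts and lengths, so this is no separate check.

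Other genes of the same response were taken as 3 further lists. Of 34 other rapid response genes, 20 were lower and 2 higher with the digit 3 at an adjusted p under 0.05 by edgeR (14.4% and 13.9% of all genes tested), with a median log2 fold change of -0.69, about midway between the 10 genes above and all genes tested. Those with the smallest p were Plk2 (-0.63), a kinase induced at synapses, Trib1 (-0.88), Sik1 (-1.02), a kinase that restrains CREB coactivators, Ier5 (-1.14), Klf10 (-0.94) and Gadd45g (-1.05), a gene of the DNA damage-inducible family. Ier5 ran from 72.1 to 116 CPM with the digit 1 and from 30.0 to 60.5 CPM with the digit 3, and Plk2 from 157 to 183 CPM and from 92.2 to 116 CPM, without overlap in either. Amigo3 (0.97) and Dusp5 (0.44) were the 2 that were higher. Egr3, the remaining gene of the EGR family, was lower by less than its relatives, at -0.48 (adjusted p = 0.0249 from edgeR). Nr4a3 was also called (-0.60, adjusted p = 0.0439), and Nr4a2 was not (-0.20, adjusted p = 0.376).

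Of 14 later activity-dependent genes, 6 were lower with the digit 3 and none higher by edgeR (14.4% and 13.9% of all genes tested), with a median of -0.35: Nptx2 (-1.13), a secreted protein that clusters AMPA receptors, Vgf (-1.08) and Pdyn (-0.69), which encode neuropeptide precursors, Gpr3 (-0.74), Ptgs2 (-0.70), the inducible cyclooxygenase, and Rgs2 (-0.63). The growth factor gene Bdnf was at -0.48 (adjusted p = 0.13) and was not called. Of 22 upstream kinases and transcription factors, 9 were lower and 4 higher, the latter a share near that of all genes tested, with a median of -0.22. The kinase genes Rps6ka1 (0.98), Camk4 (0.78) and Rps6ka5 (0.51) and the factor Creb1 (0.42) were the 4 that were higher, and Camk2a (-0.64), Mapk3 (-0.57), Mkl1 (-0.51), a coactivator of SRF, and Srf itself (-0.57) were among those that were lower.

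**Figure D5:**
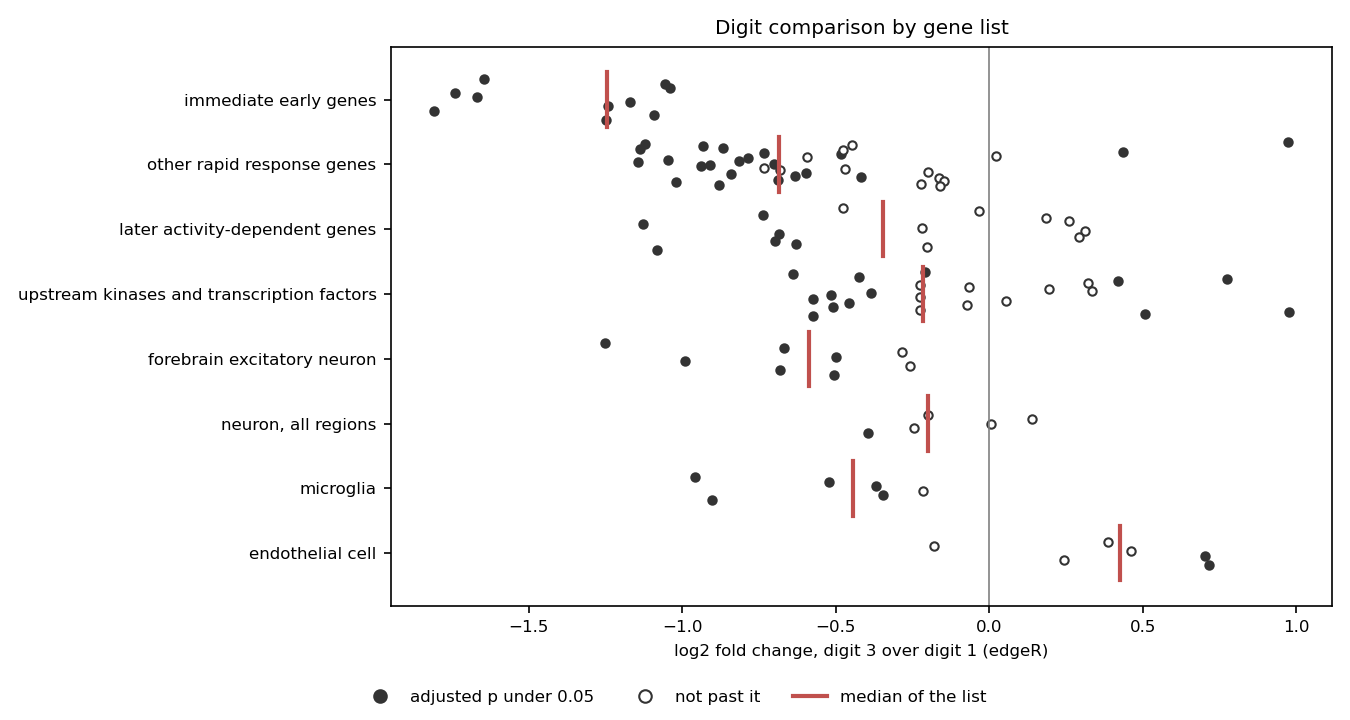
Log2 fold change of each gene (points) for the digit 3 over the digit 1 by edgeR, by gene list; filled points passed an adjusted p of 0.05, open points did not, and the red line is the list's median. The medians run from -1.25 for the 10 immediate early genes through -0.69 for the other rapid response genes to -0.35 for the later ones, and the 8 forebrain excitatory neuron markers lie at -0.59.

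For FTY720 against placebo, no gene of these 3 lists had an adjusted p under 0.05 by edgeR. An unadjusted p under 0.05 was reached by 2 rapid response genes, Klf10 at a log2 fold change of 0.83 and Ppp1r15a at -0.39, each with an adjusted p of 0.9999 from edgeR. Among the cell type markers, 3 of the 5 oligodendrocyte genes, Mag (-0.46), Cnp (-0.35) and Mbp (-0.29), and 2 of the 6 endothelial genes, Pecam1 (0.43) and Slco1a4 (0.61), did so too, where 2.61% of all genes tested did, again with adjusted p-values of 0.9999 from edgeR.

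The genes whose pattern was most like the mean of the 10, by r over the 10 mice centred within digit, were Hdac6 (0.914), Ndel1 (0.904), Prob1 (0.865), Ankub1 (0.861), Nol9 (0.857), Gcc1 (0.855), Tead3 (0.850), Sik1 (0.848), Gm10320 (0.847) and Trpm4 (0.844), among 14774 protein-coding genes whose 95th percentile was 0.535. Taken over the digit 3 mice only, their r was 0.698 (Trpm4) to 0.944 (Sik1), and over all 10 mice uncentred it was -0.155 (Ankub1) to 0.946 (Sik1). Only Sik1 of these is on a list of response genes, and Hdac6 and Ndel1 changed little in level, at -0.15 and -0.11 on the log2 scale between the digits (adjusted p = 0.189 and 0.288 from edgeR). Of the 34 other rapid response genes, 5 ranked in the top 100 (Sik1, Cyr61, Btg2, Dusp6 and Arl4d), and the list's median r was 0.349. The median r of the 14 later genes was -0.15, with none in the top 100, but over the digit 3 mice only it was 0.394, so its sign depended on the mice taken. With 10 mice and 14774 genes a high r is reached by many genes, and these values are a description only.

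The cAMP response element, bound by CREB, and the CArG box, bound by SRF, were searched on both strands in RefSeq windows of 300 bases around the transcript starts (GRCm38.p6). Windows of 8 of the 10 genes were used, 12 in all, and those of Arc and Egr1 were not analysed here. The full element TGACGTCA was in 1 of the 8 genes, Dusp1, and in 1.79% of all 32851 windows. Its core TGACG, which the full element contains, was in all 8 genes and in 10 of their 12 windows, against 20.8% of all windows and 23.0% of genes. Of the 5 windows of Egr2, 3 overlap and hold the same matches. A CArG box lay in 4 of these 5, at 2 distinct positions, and in no other of the 8 genes, and in 1.63% of all windows. Bases more than 250 before the start lie outside the windows, so elements farther upstream were not searched. The EGR motif GCGNGGGCG was found in Fosb and Nr4a1 (5.55% of all windows), and the AP-1 motif TGANTCA in none of the 8 (7.81%). A match is a run of letters and not a site known to be bound. The 250 bases before the start are shown for 4 genes with 1 window each, chosen as the gene with the full element (Dusp1) and 3 with more than 1 core whose window starts at the annotated gene, in the direction of transcription, with TGACG and its reverse complement in capitals and, in Dusp1, the full element. The windows are chr12:85473640-85473889 on the plus strand (Fos), chr6:85513590-85513839 on the minus strand (Egr4), chr19:4989972-4990221 on the minus strand (Npas4) and chr17:26508473-26508722 on the minus strand (Dusp1).
Fos: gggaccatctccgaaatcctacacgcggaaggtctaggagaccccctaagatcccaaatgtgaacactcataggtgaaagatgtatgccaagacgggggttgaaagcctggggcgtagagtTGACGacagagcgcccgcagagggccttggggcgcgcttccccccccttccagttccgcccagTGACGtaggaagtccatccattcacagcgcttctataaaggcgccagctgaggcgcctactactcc
Egr4: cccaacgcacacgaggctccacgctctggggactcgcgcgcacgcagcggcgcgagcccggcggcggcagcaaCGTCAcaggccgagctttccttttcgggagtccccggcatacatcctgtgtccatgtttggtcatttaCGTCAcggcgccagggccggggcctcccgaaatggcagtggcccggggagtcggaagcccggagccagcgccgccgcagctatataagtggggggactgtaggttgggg
Npas4: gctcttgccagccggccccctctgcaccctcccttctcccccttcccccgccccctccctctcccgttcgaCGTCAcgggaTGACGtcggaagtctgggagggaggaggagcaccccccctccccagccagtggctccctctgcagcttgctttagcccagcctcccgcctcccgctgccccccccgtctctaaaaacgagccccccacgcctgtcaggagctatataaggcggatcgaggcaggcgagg
Dusp1: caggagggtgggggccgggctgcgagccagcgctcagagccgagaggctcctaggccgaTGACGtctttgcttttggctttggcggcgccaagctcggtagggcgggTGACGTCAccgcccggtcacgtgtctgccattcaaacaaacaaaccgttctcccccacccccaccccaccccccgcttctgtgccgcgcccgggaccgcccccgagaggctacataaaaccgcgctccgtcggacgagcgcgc

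The cores lie 129 and 66 bases before the start in Fos, 177 and 109 in Egr4, 179 and 169 in Npas4 and 191, 143 and 140 in Dusp1, counted to the 5′ end of each match, where the matches at 143 and 140 are the overlapping arms of the full element. All 8 genes with a window hold the core, so its presence cannot be set against differences in their levels. A link between the core and the levels was not tested.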

How the data were processed

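Brain RNA of 10 mice was sequenced from NEBNext Ultra libraries. Per the labels and the study's methods, the authors called bases with CASAVA 1.8 and used HISAT2 2.0.5 to place the read pairs on GRCm38, and the submitters' processing notes also name fastp, featureCounts 1.5.0-p3 and DESeq2 1.20.0. The annotation release and strand setting are not given in the sources used here. The authors deposited whole-number counts per gene, not normalized, and FPKM values made from them with the gene length and a library total that is not the column total. Libraries held 14772745 to 18303981 counts, and the lowest count of any of the 10 genes in a mouse was 16 (Egr2).

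Genes were kept by filterByExpr (minimum count 10), given TMM factors and compared in the quasi-likelihood framework of edgeR 4.0.16 under R 4.3.3, with Benjamini-Hochberg adjustment over all genes: FTY720 against placebo without a covariate, the digit with treatment as a covariate, and their interaction. For each gene alone, the difference in mean log2 CPM (computed with a prior count of 2) was set against all 210 ways to split the mice, two-sided, as an exact permutation test. The smallest chi-square per degree of freedom between any pair of libraries was 16.1, so none is a repeat of another. The labels name each mouse as a sample of its own; p-values measure the spread between these mice. The alternatives were RLE and upper-quartile scaling, DESeq2 1.42.0, limma-voom and limma 3.58.1 on log2(FPKM + 0.1) and log2(FPKM + 1), other filters, other covariates, subsets of the mice and each mouse left out; the pipeline was tested on simulated data. The 10 genes and all lists were chosen with earlier results of these data known. The genes named are those 10, from other lists those called for the digit or with an unadjusted p under 0.05 for treatment, at most the 6 with the smallest p of each, and the 10 genes most like them; Amigo3, Dusp5, Egr3, Nr4a2, Nr4a3, Bdnf, Srf, Creb1, Cyr61, Btg2, Dusp6 and Arl4d were named after their values were seen.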

Additional observations from a re-analysis of the deposited data

Results flagged for a closer look

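Of 40 sets of CPM values (10 genes in the FTY720, placebo, digit 1 and digit 3 mice), 2 held a mouse that stood far from the rest by Dixon's test at the 95% level, which flags about 1 set in 20 by chance. Both were Npas4. Among the 6 FTY720 mice, F1-624 was at 28.4 CPM and the others between 9.43 and 14.5 CPM. Among the 4 placebo mice, P1-623 was at 67.8 CPM and the others between 10.8 and 17.8 CPM. Both mice have the digit 1. The treatment difference of Npas4 was 0.16 on the log2 scale without P1-623, when no placebo mouse had the digit 1, and -1.07 without F1-624.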

How the results depend on the processing

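The digit difference of each of the 10 genes stayed negative under all alternatives, and 8 to 10 genes were called by edgeR, DESeq2 and limma with all mice. With fewer mice, 6 were called without P1-623 (6 to 10 over the 10 mice left out in turn) and 6 in the mice whose number begins with 6. Relative to the forebrain markers the exact permutation p was under 0.05 in 3 genes, against 8 without that ratio, which by its construction takes the same difference out of every gene. For FTY720 against placebo no alternative gave an adjusted p under 0.05. The count at an unadjusted p under 0.05 went from 0 to 1 without a filter on low counts and to 3 with the digit as a covariate, and it was 0 to 1 over mice left out (1 without F1-624, P3-612 or P3-904). Over all genes tested, 461 of 17665 passed in the main fit, 1117 of 36165 without the filter and 2256 of 17665 with the covariate. Over mice left out, 281 to 984 did. For the interaction, 2 genes (Npas4 and Fos) had an adjusted p under 0.05 without a filter on low counts and none otherwise. Of all 36165 genes in that unfiltered fit, 26 did. At an unadjusted p under 0.05 there were 4 without the filter, 2 with limma-voom and 1 to 5 over mice left out (5 without P3-907). Over all genes tested, 905 of 36165 passed without the filter, 343 of 17665 with limma-voom and 222 to 496 over mice left out. P1-623 was the only placebo mouse with the digit 1 in all these interaction fits. The median r was 0.489 to 0.862 over mice left out. The cause of these moves was not tested.

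Treatment values of single genes that changed sign with all mice or in the digit 3 alone were Fos 0.215 (limma-voom), 0.2 and 0.154 (limma on FPKM with 0.1 and 1 added) and 0.331 (digit 3 alone); Egr2 0.111, 0.089 and 0.0208 and Nr4a1 0.0837, 0.0875 and 0.0765 in the same 3 limma fits; Nr4a1 0.048 with GC and length trends removed; Dusp1 0.00193 and 0.00268 in the first 2 of them; Egr1 -0.0524 and Arc -0.127 with the digit as a covariate, and -0.00041 and -0.0489 in the digit 3 alone. With 1 mouse left out they ranged from -0.524 to 0.671 (Fos), -0.30 to 0.427 (Fosb), -0.708 to 0.582 (Junb), -0.486 to 0.797 (Egr2), -0.707 to 0.379 (Egr4), -0.0258 to 0.948 (Arc), -1.08 to 0.16 (Npas4), -0.37 to 0.507 (Nr4a1) and -0.327 to 0.389 (Dusp1), and the highest value of each gene was the one without P1-623, which leaves placebo mice of the digit 3 only.

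No paired analysis was possible because the treatment groups share a single mouse number (612). Added after the data were seen were the mice whose number begins with 6, the removal of GC and length trends and the ratio to the forebrain markers.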
